A study of Mus musculus with 2 samples.

Results

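The ribosomal DNA locus described here is a copy of the nuclear ribosomal RNA gene on mouse chromosome 17 that is annotated as 3 genes, Gm26917, Gm42418 and CT010467.1, of 55331 genes in the GENCODE M21 annotation of GRCm38. Its fragments were defined as sequences of 15 to 17 nt with an exact, full-length match on the sense strand of Gm26917 or Gm42418, or on the strand opposite CT010467.1. This rule took 2987 of the 96471 distinct sequences of that length found in either library. Of these, 1553 were found in both libraries, 1022 with DMSO only and 412 with SB431542 only, and each of the 2987 had a single place in the locus. Distinct sequences of that length numbered 71589 with DMSO and 42410 with SB431542, of which 2575 and 1965 were of the locus. The DMSO library was read more deeply (990296 reads against 517535). The larger number found with DMSO only therefore cannot be told apart from read depth. No sequence found in 1 library alone had more than 31 reads.

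The reads came from J1 cells, a mouse embryonic stem cell line of the 129S4/SvJae strain. The culture was on gelatin, and its medium held Knockout Serum Replacement and leukaemia inhibitory factor (LIF, 1000 U/mL), the cytokine that keeps mouse stem cells undifferentiated. Cells were kept for 24 h with 3 µM SB431542, which inhibits the kinases of the type I receptors for TGF-beta, activin and Nodal, or for 24 h with an equal volume of its solvent, DMSO. Each group had 1 library of total RNA, so no difference has a replicate check and no p-value is given. The intervals are 95% Clopper-Pearson or conditional binomial intervals and cover only counting error: without molecular identifiers, amplified reads are not independent molecules.

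The DMSO library held 990296 reads of 15 to 17 nt and the SB431542 library 517535, so values are less precise with the inhibitor. The files hold no read longer than 17 nt, so the fragments are far shorter than the RNAs they come from, and the ends of longer fragments are not analysed here. All reads of that length had a mean GC content of 60.7% (DMSO) and 64.2% (SB431542). As a check of the cell type, fragments were found of 7 of the 9 hairpins listed from the cluster of Mir290a to Mir295, which is characteristic of these cells (39534 reads with DMSO, 10514 with SB431542). The 5 listed hairpins of the cluster of Mir302a to Mir367, typical of primed pluripotent cells, had 0 reads in both libraries, which allows up to 0.000303% of the reads with DMSO and 0.00058% with SB431542 (3 reads), and 5 fibroblast hairpins had 56 and 9 reads over 3 of them.

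RNA polymerase I transcribes ribosomal DNA as a long precursor in which a 5′ external transcribed spacer is followed by 18S, the RNA of the small ribosomal subunit, and then by the first internal transcribed spacer (ITS1). The spacers are cut away and degraded while the ribosome is assembled, so mature 18S accumulates and the spacers do not. Ribosomal RNA is the most abundant RNA of a growing cell, and its pieces are common in libraries of short RNA.

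On GRCm38 the locus spans chr17:39843013-39848827, on the plus strand in the direction of ribosomal transcription (5815 nt). Gm26917, annotated as a long noncoding RNA, covers chr17:39843013-39846341 and lies within the 5′ external spacer (3329 nt, 69.1% GC). A gap of 11 nt that no transcript covers separates it from 18S. The 18S stretch, chr17:39846353-39848201 (1849 nt, 55.4% GC), is the strand opposite the longest transcript of CT010467.1, a gene of ribosomal RNA annotated on the minus strand. Positions in 18S are counted from 1 at its first base. Gm42418, a long noncoding RNA on the plus strand at chr17:39846958-39848788, covers 18S from base 606 onwards and most of the ITS1 stretch, chr17:39848202-39848827 (626 nt, 71.2% GC).

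The most abundant fragment at each of 9 of the 10 most used starts shows what the library reads of this locus are. Each is given 5′ to 3′ from the GENCODE M21 transcripts, with the fragment in capitals and 10 nt of the locus on either side in lower case.
18S 600 to 616: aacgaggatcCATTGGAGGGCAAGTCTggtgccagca
18S 693 to 709: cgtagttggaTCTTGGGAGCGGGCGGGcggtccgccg
18S 510 to 526: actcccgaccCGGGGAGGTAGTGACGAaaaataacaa
18S 409 to 424: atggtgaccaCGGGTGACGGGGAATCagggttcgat
18S 683 to 699: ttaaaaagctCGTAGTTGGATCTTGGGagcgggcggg
18S 1170 to 1186: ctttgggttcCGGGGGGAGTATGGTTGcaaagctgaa
18S 695 to 711: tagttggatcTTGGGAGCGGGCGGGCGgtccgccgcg
18S 274 to 288: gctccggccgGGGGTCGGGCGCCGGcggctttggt
18S 969 to 985: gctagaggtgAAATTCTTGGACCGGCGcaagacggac

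The fragment that ends at the last base of 18S marks the junction with ITS1. It is shown in the same way, with the commonest fragment of each spacer. Whether the spacer fragments came from the precursor or from spacer already cut away was not tested.
18S 3′ end, 1834 to 1849: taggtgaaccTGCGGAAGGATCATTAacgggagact
5′ external spacer, chr17:39844550-39844566: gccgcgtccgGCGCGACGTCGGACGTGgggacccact
ITS1, chr17:39848332-39848347: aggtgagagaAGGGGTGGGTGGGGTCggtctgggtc

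The locus supplied a smaller share of the reads with SB431542 than with DMSO, and nearly all of it was 18S in both libraries. Locus reads numbered 121077 with DMSO, 12.2% of the 15 to 17 nt reads (12.16 to 12.29), and 51389 with SB431542, 9.93% (9.85 to 10.01). The share was 1.23-fold lower with SB431542, a log2 ratio of -0.30 (-0.32 to -0.29). Among reads with an exact match to any transcript, the locus made up 41.2% with DMSO and 38.3% with SB431542, and on that total the log2 ratio was -0.10. When each distinct sequence was counted once, with the DMSO library thinned to the reads of the other, the log2 ratio was 0.038.

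Of the locus reads, 98.5% with DMSO and 97.8% with SB431542 lay within 18S. The 18S stretch had 119216 reads with DMSO and 50282 with SB431542, a log2 ratio of -0.31 (-0.32 to -0.29). Per 1000000 reads of 15 to 17 nt and kilobase, its level was 65108 with DMSO and 52546 with SB431542.

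The spacer reads did not follow 18S. The 5′ external spacer had 1202 reads with DMSO and 788 with SB431542, a log2 ratio of 0.33 (0.20 to 0.46). Per 1000000 reads and kilobase its level was 365 with DMSO and 457 with SB431542, 179-fold and 115-fold lower than that of 18S. The ITS1 stretch had 634 and 312 reads, a log2 ratio of -0.09 whose interval included 0 (-0.29 to 0.11), and a level of 1023 and 963 per 1000000 reads and kilobase.

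Set against 18S, the spacers were more frequent with SB431542: 15.4 spacer reads per 1000 of 18S with DMSO and 21.9 with SB431542, a log2 ratio of 0.51 (0.40 to 0.62). The spacer reads had a mean GC content of 70.3% with DMSO and 69.3% with SB431542, against 57.6% and 60.4% for 18S. The log2 ratio of spacer to 18S was 0.52 among reads of 50 to 60% GC, 0.67 at 60 to 70% and 0.018 at 70 to 80%, and it turned to -0.45 at 80 to 90%. With each distinct sequence counted once it was 0.032. These GC bins and counts of distinct sequences were chosen after the data had been seen.

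By annotated gene, the plus-strand transcripts Gm26917 and Gm42418 took 573 and 1601 sequences. Gm26917 had the 1202 and 788 reads of the external spacer. Gm42418 had 57087 and 25164 reads (log2 -0.25, -0.27 to -0.22). The strand opposite CT010467.1 took 2392 sequences with 119849 and 50580 reads (log2 -0.31, -0.32 to -0.29). Gm42418 and CT010467.1 shared 1579 sequences, since they lie on opposite strands of the same stretch of 18S, so their values are not independent.

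Reads of the opposite strand were taken as the background, and whether they were chance matches was not tested. They numbered 21 with DMSO and 13 with SB431542 over the whole locus, 5766 and 3953 sense reads for each antisense read. Over the spacers there were 6 antisense reads with DMSO beside 1836 sense reads, and 4 with SB431542 beside 1100. The sense reads of all 3 stretches were thus above that background in each library. A match outside the locus existed for 150 of the 2987 sequences, which held 3.30% of the locus reads with DMSO and 2.60% with SB431542.

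**Figure D1:**
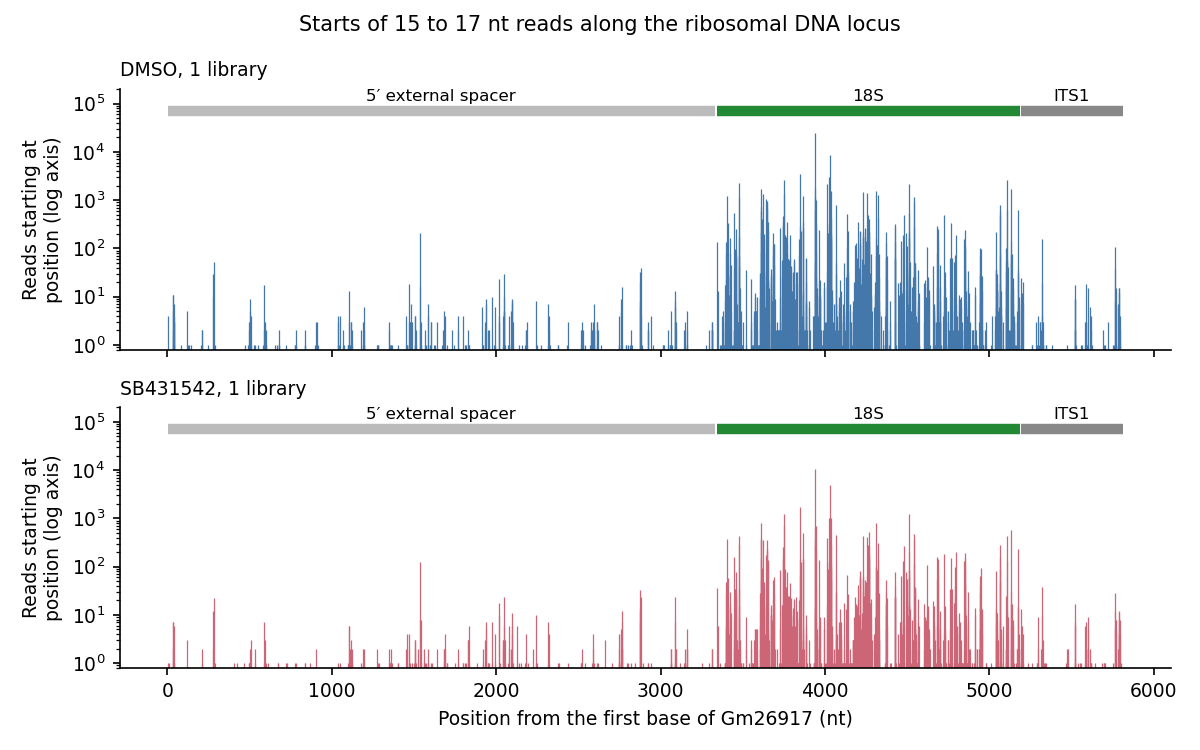
Reads of 15 to 17 nt that start at each position of the locus, on a log axis, against the position from the first base of Gm26917 in nt, with DMSO above and SB431542 below (1 library each); bars at the top mark the annotated stretches. Starts are dense and high in 18S, where 56.5% of positions were used as a start in at least 1 library, and sparse in the 5′ external spacer (11.5%) and ITS1 (16.1%).

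Within 18S the reads were concentrated at a few starts, and bases 600, 693 and 510 were the most used, in that order, in both libraries. Reads starting at base 600 numbered 24050 with DMSO and 10585 with SB431542, 19.9% and 20.6% of all locus reads. Base 693 was the next, with 8420 and 5009 reads (6.95% and 9.75%). The 10 most used starts by the mean of the shares in both libraries, among them those of the 9 fragments printed above, held 42.2% of the locus reads with DMSO (41.9 to 42.4) and 46.5% with SB431542 (46.1 to 46.9). The reads used 1359 starts with DMSO and 1113 with SB431542, but were spread as unevenly as if 19.7 and 17.2 starts had been used equally (the inverse of the sum of squared shares).

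Base 600 was a sharp start. It held 83.3% of the reads that started within 5 nt of it with DMSO and 83.4% with SB431542. Of its reads, 72.0% and 73.2% were 17 nt long and ended at base 616, the most used end, while 22.2% and 21.1% were 16 nt long. Reads that ended at the base just before it numbered 0 in both libraries. The 600 to 616 fragment alone had 17310 and 7750 reads, and its log2 ratio was -0.22 (-0.26 to -0.18).

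Starts 683, 693 and 695 lie within one stretch and gave overlapping fragments with unlike ratios. Start 683 had 3033 and 1038 reads (log2 -0.61, -0.71 to -0.51). Start 693 had a log2 ratio of 0.19 (0.14 to 0.24). Start 695 had 1514 and 999 reads (0.34, 0.22 to 0.45). The fragments printed for these 3 starts are 52.9%, 76.5% and 82.4% GC.

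The remaining 5 of these 9 starts had log2 ratios between -0.15 and 0.19, a range that does not cover the tenth start. Start 510 had 3487 reads with DMSO and 1752 with SB431542 (-0.06, -0.14 to 0.03), and start 1170 had 2109 and 1253 (0.19, 0.08 to 0.29). Start 409 had 2641 and 1242 reads, start 274 had 1661 and 794, and start 969 had 1547 and 789.

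Lower down, the order of the starts differed between the libraries. Starts 138 and 675 were among the 10 most used with DMSO and not with SB431542. Start 138 had 2221 and 429 reads (log2 -1.43, -1.59 to -1.29) and start 675 had 2135 and 398 (-1.49, -1.65 to -1.33). Start 601, with 1796 and 669 reads (-0.49, -0.62 to -0.36), was likewise among the 10 most used with DMSO only. These starts were named after their values had been seen.

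Starts 274, 409 and 969 differed in the length of their fragments. At base 274, 91.6% of the reads with DMSO and 94.2% with SB431542 were 15 nt long, the 93.3% GC fragment that ends at base 288. At base 409 the commonest length was 16 nt (64.1% and 61.8%). At base 969 it was 17 nt (97.8% and 98.2%). For each of these 3 starts the same length led in both libraries. The 10 most used ends were bases 616, 709, 615, 526, 708, 424, 699, 1186, 288 and 985, which closed 40.5% of the locus reads with DMSO and 45.3% with SB431542. Of these, 616, 709, 526, 699, 1186 and 985 close 17 nt fragments printed above. As 17 nt is the longest length in the files, such ends cannot be told apart from the length limit. The 10 most abundant sequences made up 35.1% and 39.5%.

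**Figure D2:**
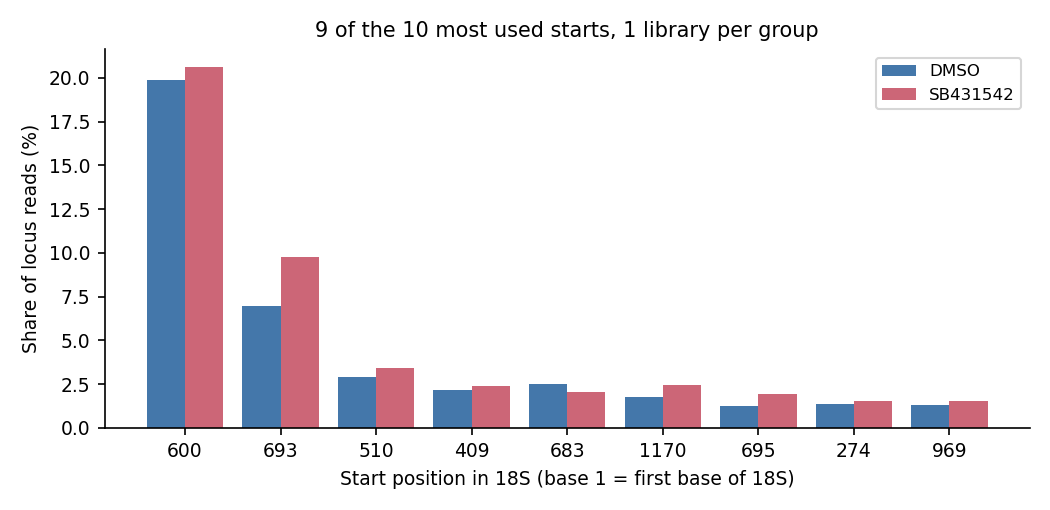
Share of locus reads (%) at each of 9 of the 10 most used starts in 18S, with DMSO and with SB431542 (1 library each, so no error bars). Start 600 stands near 20% in both libraries and start 693 at 6.95% and 9.75%, and start 683 is at 2.51% and 2.02%; the tenth start is not plotted.

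Reads within 18S began with C more often than 18S holds C. The first base was C in 51.0% of the reads with DMSO and 48.5% with SB431542, where C makes up 26.2% of 18S. Without the 10 most used starts the shares were 37.3% and 32.2%, and over distinct 18S sequences 30.3%, so the excess lay mostly in the abundant fragments. Without those starts A was first in 36.2% and 38.8% of the reads, more often than C with SB431542, and A makes up 22.7% of 18S. G was first in 10.7% and 11.1% of the reads and last in 40.7% and 44.1%, and it makes up 29.2% of 18S.

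Length also differed between reads and distinct sequences. Reads of 17 nt, the longest length in the files, made up 58.2% of the locus reads with DMSO (57.9 to 58.4) and 57.6% with SB431542 (57.1 to 58.0), against 48.3% and 48.2% of all other 15 to 17 nt reads. Among only those other reads with an exact match to a transcript, the share of 17 nt was 33.4% and 34.6%. Over distinct locus sequences the shares were 37.7% and 39.0%. The mean GC content of the locus reads was 57.8% with DMSO and 60.6% with SB431542, and windows of 15 to 17 nt over 18S have a mean of 55.5%.

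The 5 most abundant segments of the locus were the same, in the same order, in both libraries. Cut into 59 segments of 100 nt, the locus had 35 with at least 50 reads over both libraries: 12 in the 5′ external spacer, 17 in 18S, 4 in ITS1 and 2 that span an end of 18S. Each read was counted in the segment where it starts. Across these 35 segments the log2 shares of the libraries had a Pearson correlation of 0.98, given as a description because all points share the same 2 libraries. The segment of bases 561 to 660 led, with 29631 reads with DMSO and 13107 with SB431542 (24.5% and 25.5% of the locus reads). It was followed by 661 to 760 (20029 and 9872 reads), 261 to 360 (11557 and 4213), 861 to 960 (7992 and 3594) and 361 to 460 (7505 and 3293).

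At least 2-fold lower with SB431542 were 3 of the 35 segments (8.57%), and 1 was at least 2-fold higher (2.86%). The lowest was 18S 761 to 860, with 1977 and 346 reads (log2 -1.58, -1.75 to -1.41). The segment that spans the 3′ end of 18S, from base 1761 on, had 6474 and 1593 reads (-1.09, -1.17 to -1.01). Most of these reads lay inside 18S, as only 696 and 257 reads ended at its last base. The segment of bases 61 to 160 had 7315 and 1857 reads (-1.04, -1.12 to -0.97). All 3 had reads of low GC content, with means of 51.5%, 44.5% and 49.4% in the DMSO library, and the last 2 were just past 2-fold. Other segments with such reads varied. The segment 1661 to 1760, at 45.8% GC with DMSO and 46.1% with SB431542, had a log2 ratio of -0.77. The segment 1261 to 1360, at 52.1% and 53.8% GC, had 0.20. The segment 861 to 960 had -0.22, but its reads were 49.0% GC with DMSO and 57.5% with SB431542. After the correction for GC content 1 segment was at least 2-fold lower and 0 were higher, and with the locus reads as the total 1 was lower and 3 were higher.

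The next lowest were 18S 1661 to 1760, with 2465 and 754 reads (-0.77, -0.89 to -0.65), and the segment that spans the 5′ end of 18S, with 310 and 95 reads (-0.76, -1.12 to -0.43). The ITS1 segment chr17:39848313-39848412 was level with the latter, with 196 and 60 reads (-0.76, -1.21 to -0.35). The segment past 2-fold in the other direction lies in the 5′ external spacer, at chr17:39845713-39845812, and had 40 and 43 reads (1.04, 0.39 to 1.70). Its interval reached far under 2-fold. Among segments with at least 200 reads over both libraries none was 2-fold higher.

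Of the segments with more reads, 18S 1461 to 1560 was the highest, with 840 reads with DMSO and 739 with SB431542 (0.75, 0.61 to 0.90). In the 5′ external spacer the segment chr17:39845013-39845112 had 127 and 108 reads (0.70, 0.32 to 1.08), and chr17:39845813-39845912 had 115 and 95 (0.66, 0.25 to 1.07). The ITS1 segment chr17:39848513-39848612 had 91 and 72 reads (0.60, 0.13 to 1.06). The spacer segment chr17:39846013-39846112 was level with it, with 53 and 42 reads (0.60, -0.02 to 1.21), an interval that included 0.

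The median log2 ratio was -0.20 over the 35 segments, -0.24 over the 17 within 18S, 0.29 over the 12 of the 5′ external spacer and 0.02 over the 4 of ITS1. The counting interval lay below 0 for 12 of the 17 segments of 18S and above 0 for 3. In the 5′ external spacer it lay below 0 for 0 of 12 and above 0 for 3, and in ITS1 it lay below 0 for 1 of 4 and above 0 for 1.

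**Figure D3:**
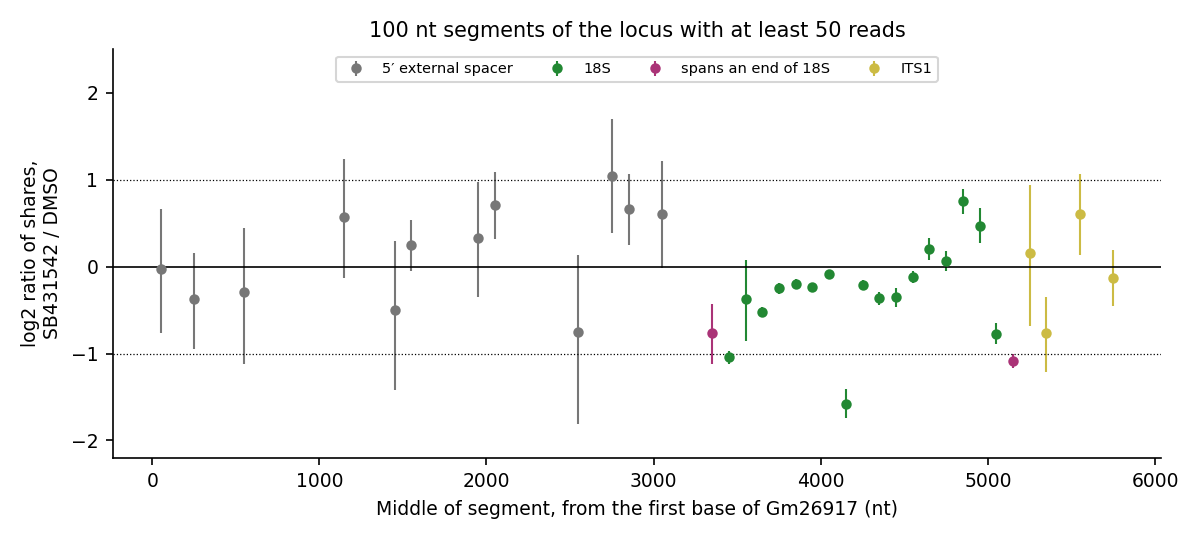
Log2 ratio of shares, SB431542 over DMSO, for the 35 segments of 100 nt with at least 50 reads, against their place from the first base of Gm26917 in nt; points are 1 library against 1 and bars are 95% intervals of counting error. Dotted lines mark 2-fold: 3 segments lie below the lower line, 2 of them in 18S and 1 across its 3′ end, and 1 spacer segment lies above the upper line.

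Single sequences of the locus ranged widely in their ratio. Of the 2987 sequences, 357 had at least 50 reads over both libraries, and these held 90.5% of the locus reads with DMSO and 90.2% with SB431542. At least 2-fold lower with SB431542 were 89 of the 357 (24.9%), against 13.7% of all 2446 sequences of that depth. At least 2-fold higher were 15 (4.20%), against 6.75% of all. Their log2 ratios ran from -3.47 to 1.68, with a median of -0.39 over the 357, -0.09 over all 2446 and -0.05 over the other 2089. The 357 passed a minimum on the sum of both libraries, and no test was made of these shares.

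The 3′ end of mature 18S could be seen in the reads. At the 3′ end, 696 reads with DMSO and 257 with SB431542 ended at base 1849, the last of 18S, while 6 and 3 ended 1 to 5 nt before it. Reads that crossed from 18S into ITS1 numbered 25 and 7. Of the reads that reached base 1849, 96.5% with DMSO (94.9 to 97.7) and 97.3% with SB431542 (94.6 to 98.9) ended there. The junction fragment printed above supplied 630 and 229 of them (log2 -0.52, -0.75 to -0.30).

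That fragment also had a sharp start, among the few starts that the length limit of the files allows. At base 1833 the depth was 39 reads with DMSO and 21 with SB431542, and at base 1834 it was 675 and 251. Over bases 1830 and 1831, the adjacent adenosines of the gaacc run printed just before the fragment, it was 9 and 6 reads. These adenosines are known as a conserved pair dimethylated on the base. Whether that bears on the start was not tested. Reads that ended at base 1849 could start no earlier than base 1833, because of the length limit of the files. Reads that ended at base 1849 thus could not add to the depth over the adenosines. Reads that ended earlier could cover the adenosines but were few. Why they were few was not tested, so nothing about the pair can be read from this depth.

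**Figure D4:**
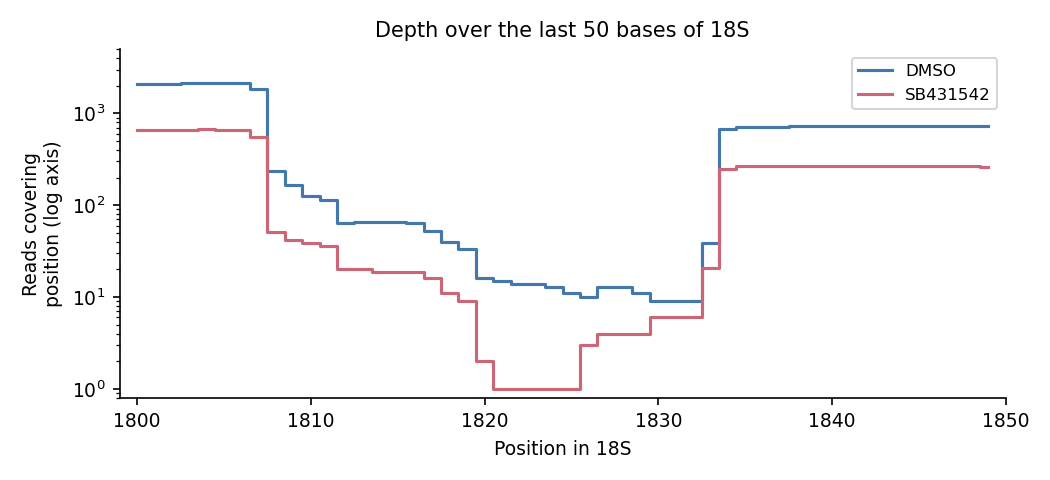
Number of reads that cover each of the last 50 positions of 18S (log axis), with DMSO and with SB431542, 1 library each. Depth is lowest before base 1833, where the length limit of the files excludes reads that end at the last base. It rises at base 1834 to 675 and 251 reads, from where it stays level to the last base.

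At the 5′ end, 133 reads with DMSO and 36 with SB431542 started at base 1 of 18S, and 13 and 6 started at bases 2 to 20. Reads from the spacer into 18S could not be matched, because no transcript covers the 11 nt before base 1. How many reads began at base 1 rather than crossed it therefore cannot be given. No read started at the first base of ITS1 in either library. At ITS1 bases 2 to 20, 72 and 30 reads started.

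Exact matching left 4 places of 18S nearly empty, and reads with a single mismatch filled them. Reads with 1 mismatch to 18S and no exact match to any transcript numbered 12061 with DMSO and 5262 with SB431542, 10.1% and 10.5% of the exact 18S reads. On the opposite strand there were 63 and 24. At 4 positions a single substitution had at least 200 reads each, and together these substitutions made up 88.8% of the mismatched sense reads with DMSO and 87.3% with SB431542. The substitutions, written as the base of the chromosome 17 copy, the position in 18S and the base of the reads, were T1051G, A1106G, T1074C and T1758C.

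Nearly all reads over these positions carried the substituted base. T1051G had 6333 reads with DMSO and 2833 with SB431542, beside 3 and 1 exact reads. A1106G had 2781 and 1218 reads, beside 0 and 0. T1074C had 1210 and 280, and T1758C 381 and 264. With fewer reads, C180G (43 and 18, beside 0 and 0) showed the same, while the next after the 4, C984T, made up 1.70% and 1.74% of the reads over its position.

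The commonest read with each substitution is shown with the substituted base in capitals.
T1051G: aaagtcggagGttcg
A1106G: cgactggcGatgcggcg
T1074C: atcagataccgtCgta
T1758C: cccacggccctggCgg
The reads with these 4 substitutions had a log2 ratio of -0.28 (-0.33 to -0.23), close to the -0.31 of the exact 18S reads. With 1 mismatch allowed, a choice made after the data had been seen, the ratio of the whole locus was -0.30. Which copies of the ribosomal DNA the reads came from was not tested.

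Some positions of 18S had no exact read in either library. Depth over 18S had a median of 158 reads with DMSO and 62 with SB431542 and peaked at 29197 reads at base 611 and 12917 at base 612. The longest stretch with no read in either library was 1248 to 1262 (15 nt), and the next was 1659 to 1672 (14 nt). With 1 mismatch allowed, 1248 to 1254 (7 nt) was still without a read and 1659 to 1672 was not.

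The ratio between the libraries differed with the GC content of the reads, inside 18S and outside the locus, and within 18S it did not rise at every step. It was -0.56 at 20 to 30% GC and -0.70 at 30 to 40%. Among 18S reads of 40 to 50% GC the log2 ratio was -0.97 (-1.01 to -0.92), with 19752 reads with DMSO and 5287 with SB431542. At 50 to 60% GC it was -0.34, at 60 to 70% -0.15, at 70 to 80% 0.02, at 80 to 90% 0.35 and at 90 to 100% -0.04. Reads outside the locus went from -0.42 at 40 to 50% to 0.45 at 80 to 90%. In each bin from 30 to 100% the value of 18S was below that of the other reads, while at 20 to 30% both stood at -0.56.

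The spacer reads did not rise with GC content from 60 to 90%. Their log2 ratio was 0.18 at 50 to 60% GC (-0.11 to 0.47), 0.52 at 60 to 70% (0.33 to 0.70), 0.04 at 70 to 80% (-0.15 to 0.23) and -0.10 at 80 to 90% (-0.39 to 0.18). The interval lay above 0 in 1 of these 4 bins. Over the 35 segments the log2 ratio and the GC content of the reads had a Pearson correlation of 0.42 and a Spearman correlation of 0.40, given as a description. After division by the median ratio of other sequences of the same GC content, the whole locus stood at -0.25.

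**Figure D5:**
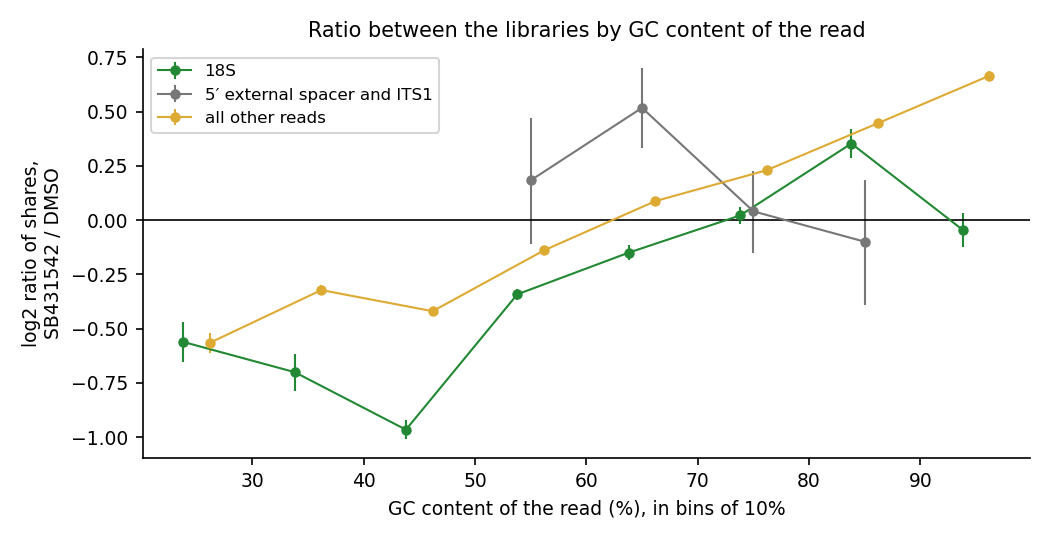
Log2 ratio of shares, SB431542 over DMSO, by GC content of the read in bins of 10%, for 18S, for the spacers and for all other 15 to 17 nt reads; bars are 95% intervals of counting error, 1 library a group, and points are set slightly apart. The ratio rises with GC content for other reads from 40 to 100% and for 18S from 40 to 90%, and the spacer points, shown for the 4 bins with most of their reads, have no such rise.

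The other listed RNAs, most of them of the ribosome or of its assembly, did not share 1 direction. Of 14 listed RNAs, 10 had at least 50 reads over both libraries, with a median log2 ratio of -0.24. The interval lay below 0 for 6, all of them RNAs of the ribosome or of its assembly. It lay above 0 for 4, of which only 5.8S is an RNA of the ribosome. Among the RNAs of the cytosolic ribosome, 5S, made by RNA polymerase III, had 12270 reads with DMSO and 5797 with SB431542 (-0.15, -0.19 to -0.10). The 5.8S RNA, cut from the same precursor as 18S, had 68 and 57 reads (0.68, 0.15 to 1.21). The mitochondrial ribosomal RNAs were lower: 204 and 75 reads for mt-Rnr1 (-0.50, -0.91 to -0.12) and 291 and 98 for mt-Rnr2 (-0.63, -0.98 to -0.30).

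Of the small nucleolar RNAs, U3, which acts in the cleavage of the precursor, had 556 and 229 reads (-0.34, -0.57 to -0.12). The Snord14 genes, whose RNA also acts in making 18S, had 391 and 87 reads (-1.23, -1.58 to -0.89), the lowest ratio of the 10. U8, needed for 5.8S and 28S, had 213 and 81 reads (-0.45, -0.85 to -0.08), and its value turned to 0.15 after the correction for GC content, its reads being 34.4% GC.

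Also higher with SB431542 were 3 RNAs that are not part of the ribosome. Rpph1, the RNA of ribonuclease P, had 55 and 53 reads (0.88, 0.31 to 1.45). The signal recognition particle RNA 7SL had 2006 and 1336 (0.35, 0.25 to 0.45), and 7SK, a regulator of transcription elongation, had 149 and 142 (0.87, 0.52 to 1.21). The other 4 listed RNAs, Rmrp, U13, U22 and Snora73, had 2 to 18 reads in each library and were not described.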

How the data were processed

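Total RNA was isolated with TRIzol, and libraries were made from 1 µg with an Illumina TruSeq RNA kit, per the labels' protocols. Not given in the sources used here are the selection of small RNAs, the trimming and the aligner. Each deposited file lists distinct sequences with their lengths and raw, unnormalized read counts. The submitters' processing notes name genome build mm9; the coordinates here come from matching the sequences to GENCODE M21 transcripts of GRCm38. The labels gave the group of each of the 2 libraries, and 1 library a group allows no test.

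The transcripts of the 3 genes were joined into 1 sequence. Fragments of 15 to 17 nt were placed by exact match, and shares were taken of all 15 to 17 nt reads (990296 with DMSO, 517535 with SB431542; 3 reads are 0.000303% and 0.00058%). Log2 ratios used a pseudocount of 0.5 read. Segments of 100 nt, single sequences and other RNAs were described from 50 reads over both libraries, and 2-fold served as the threshold. The named items were the 3 genes, the 10 most abundant sequences, starts and ends, the 5 largest, 5 highest and 5 lowest segments, and the listed RNAs from 50 reads; 1 of the 10 starts is not reported here. The genes and lists were chosen with earlier results of these data known. The GC correction divided SB431542 counts by the median ratio of other sequences of at least 20 reads in the same 10% GC bin.

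Matching and calling were tested on simulated data. All 199 simulated fragments of the locus returned to their place. They were cut from the same sequence that they were matched to, so this checks the code and not the placing of real reads. Of 2446 sequences with the depths of this comparison, 198 of 200 simulated with a 4-fold change were called in that direction, and 9 of 2246 unchanged ones were called. The simulation held counting error only. Alternatives were other totals, lengths, widths, read minimums and pseudocounts, edgeR TMM and DESeq2 size factors over segments, distinct sequences, sequences found only in the locus, leaving out abundant sequences, the GC correction and a thinned DMSO library. Allowing 1 mismatch, leaving out starts and the alternatives for spacer reads per 18S read were added after the data had been seen. Other copies of the ribosomal DNA and 28S were not used here. Factors were computed in R 4.3.3 (DESeq2 1.42.0, edgeR 4.0.16) and all else in Python 3.11.15 (pandas 2.3.3, numpy 2.4.6, scipy 1.17.1), with plots by matplotlib 3.10.9.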

Additional observations from a re-analysis of the deposited data

How the results depend on the processing

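No paired analysis was possible because each group had 1 library, and for the same reason no library could be left out. The log2 ratio of the whole locus (-0.30) stayed below 0 in 12 of 13 alternatives. It was -0.35 per read of any length, -0.10 with reads matched to any transcript as the total, -0.33 from 14 nt on, -0.40 without the 10 most abundant sequences, -0.41 without the 10 most used starts and -0.25 after the GC correction. It turned to 0.038 with distinct sequences and a thinned DMSO library. The cause was not tested.

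The number of segments at least 2-fold lower (3) was 6 with segments of 50 nt, and 1 with segments of 200 nt, the locus reads as the total, edgeR TMM factors or the GC correction. The number at least 2-fold higher (1) was 7 with no read minimum and 3 with the locus reads as the total. It was 0 with a minimum of 200 reads, all reads as the total, the GC correction or a thinned DMSO library. The median log2 ratio of the segments moved from -0.20 to 0.10 with the locus reads as the total and to -0.01 with edgeR TMM factors.

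Spacer reads per 18S read (log2 0.51) stood at 0.34 after the GC correction, 0.63 without the 10 most used starts, 0.67 at 60 to 70% GC, 0.018 at 70 to 80% GC, -0.45 at 80 to 90% GC and 0.032 over distinct sequences. Among the listed RNAs, U8 turned from -0.45 to 0.15 after the GC correction, and no other of the 10 changed sign.

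Values per library are given with DMSO first. Over distinct sequences the share of 18S was 78.7% and 78.4%, that of 17 nt 37.7% and 39.0%, the mean GC content 60.2% and 61.3%, and the ratio of sense to antisense 286 and 197. At 17 nt alone the share of 18S was 98.6% and 98.0%, that of the 10 most used starts 54.6% and 57.2%, and the ratio of sense to antisense 23469 and 9859. With sequences found only in the locus the 10 most used starts held 43.6% and 47.7%, and the ratio of sense to antisense with DMSO was 13009, from few antisense reads. Without the most abundant sequence the 10 most used starts held 32.5% and 37.0%. Without the 10 most abundant sequences the share of 17 nt was 49.1% and 46.3%, and the mean GC content 56.1% and 59.7%. The counts of antisense reads and of spacer segments are low, which limits their ratios.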

Other observations

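Reads of 14 nt, which were outside the fragments described, gave a lower share for the locus than the longer reads. Of 111724 reads of 14 nt with DMSO, 10976 matched the locus (9.82%, 9.65 to 10.0002), and of 65674 with SB431542, 4390 did (6.68%, 6.49 to 6.88). Reads of 14 nt antisense to it numbered 27 and 17.

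The reads with 1 of the 4 recurrent substitutions in 18S, which exact matching leaves out, made up 1.08% of all 15 to 17 nt reads with DMSO (1.06 to 1.10) and 0.888% with SB431542 (0.862 to 0.914).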
